A study of Drosophila melanogaster with 73 samples.

Results

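The nuclear-encoded genes of the mitochondrial respiratory chain were followed in RNA-seq libraries from guts and fat bodies of adult female Drosophila melanogaster. Members were chosen by gene symbol alone: symbols that begin with ND- (complex I), SdhA to SdhD (complex II), UQCR- (complex III), COX4 to COX8 (complex IV) or ATPsyn (complex V). In all, 87 annotated genes carried such a symbol. Of these, 69 were among the 10366 genes of the gut count table and 69 among the 11069 genes of the fat body table. The 63 main subunits were present in both tables: 34 of complex I, 4 of complex II, 6 of complex III, 8 of complex IV and 11 of complex V. The other 24 symbols belong to paralogues of a subunit, of which 6 were listed in each table, all at low counts.

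Complex I (NADH dehydrogenase) and complex II (succinate dehydrogenase) pass electrons from NADH and succinate to ubiquinone, complex III passes them on to cytochrome c, and complex IV (cytochrome c oxidase) hands them to oxygen. Complexes I, III and IV pump protons across the inner mitochondrial membrane as they do so, and complex V, the ATP synthase, uses the returning protons to make ATP. Each of complexes I, III, IV and V also contains subunits encoded by the mitochondrial genome, so that its assembly draws on both genomes, whereas complex II is made of nuclear-encoded subunits only and also serves as an enzyme of the citric acid cycle.

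The study asked how the transcription factors Foxo, Aop and Pnt act together. Expression was driven in every genotype by S106, a GeneSwitch driver that works in gut and fat body when the steroid RU486 is fed, from UAS transgenes in 7 combinations: Foxo, AopACT (an activated form of the ETS repressor Anterior open), PntP1 (an isoform of the ETS activator Pointed), Foxo+AopACT, Foxo+PntP1, AopACT+PntP1 and Foxo+AopACT+PntP1. Females were mated for 48 h and then fed either 200 µM RU486 (induced) or food without it (uninduced, the same genotype) for 6 days. The gut samples were dissected free of Malpighian tubules, and the fat body samples are the abdomen that remained once gut and reproductive organs were taken out, so they also hold muscle, cuticle and other cells of the body wall. Flies that lacked the transgenes and were fed RU486 were not among the samples, and the effect of RU486 cannot be told apart from that of the transgenes. Each library came from a pool of organs. The sources used here do not say whether the pools of a group came from separate cultures, and p-values measure the spread between these pools.

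The tables held 36 gut libraries (19 uninduced and 17 induced) and 34 fat body libraries (16 and 18), with 1 to 3 libraries a group; 3 further labelled libraries were not analysed here. Library totals ran from 1138812 to 8257766 counts. The members took between 0.848% and 2.22% of the counts of a library. Mitochondrially encoded transcripts took 3.13% to 24.9% of the counts in gut and 2.98% to 15.4% in fat body, with 2 gut libraries above 20%. The protease gene betaTry had a median of 6090 CPM in gut and 29.2 CPM in fat body, and the lipoprotein gene apolpp 86.4 and 8324 CPM, so both labels had their markers. Lsp2, a storage protein gene of the fat body, had a median of 1.78 CPM there. In gut, pnt was above every library without induced PntP1 in all 10 induced carriers. There aop was above the uninduced libraries of the same genotype in 4 of 4 genotypes and foxo in 3 of 4. Against all other gut libraries, aop was above in 2 of 9 induced carriers and foxo in 7 of 11. With AopACT+PntP1, aop was at 53.0 to 61.4 CPM induced against 43.8 to 50.9 CPM uninduced. With Foxo+PntP1, foxo was at 57.8 to 110 CPM induced against 56.7 CPM in the single uninduced library. With Foxo+AopACT+PntP1 it overlapped, at 56.3 to 102 CPM induced against 55.2 to 92.1 CPM uninduced. These 2 gut genotypes are therefore named below by their labels. In fat body, foxo was above the uninduced libraries in 0 of 4 genotypes with the Foxo transgene (median 61.6 CPM in 11 induced carriers against 88.5 CPM in 23 other libraries), so fat body libraries with Foxo are named below only by their labels. Also in fat body, aop and pnt were each above the uninduced libraries in 3 of 4 genotypes with their transgene. The groups overlapped with Foxo+AopACT+PntP1 for aop and with Foxo+PntP1 for pnt. The fat body library labelled Foxo+PntP1 uninduced replicate 1 held pnt at 115 CPM, within the range of induced carriers, and goes against its label.

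The genes of complexes IV and V had the highest medians in both tissues, and those of complexes I to III were lower. Levels were compared between genes as CPM (counts per 1000000 of the scaled library total) divided by exon length in kb. Over the 19 uninduced gut libraries, the median gene of complex IV stood at 649 CPM per kb and that of complex V at 532, against 121 for complex I, 111 for complex II and 105 for complex III. In the 16 uninduced fat body libraries the same medians were 445, 424, 85.2, 68.2 and 93.6 CPM per kb. As a share of reads, which also reflects transcript length and the number of genes, complex V took 46.1% of the CPM of the 63 main subunits in gut and 54.1% in fat body, complex I 25.6% and 22.5%, complex IV 20.7% and 16.6%, complex III 4.84% and 4.86%, and complex II 2.64% and 1.99%. The order of the genes was much the same in both tissues: the log2 levels per kb of the 63 genes in gut and in fat body had a correlation of 0.98 across genes, which are not independent replicates.

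**Figure D1:**
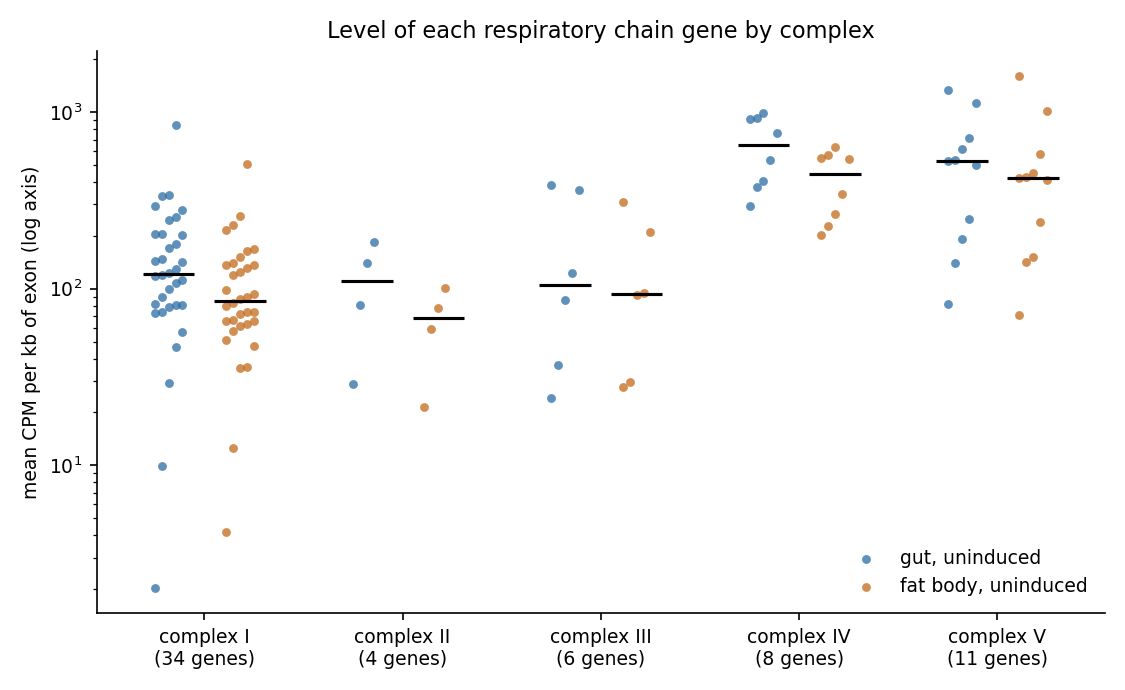
Mean level of each of the 63 main subunits in uninduced gut (blue, 19 libraries) and uninduced fat body (orange, 16 libraries), as CPM per kb of exon on a log axis, by complex; bars mark the median gene. Complexes IV and V sit above the others in both tissues, and within complex I the genes range from 2.03 (ND-B8) to 844 (ND-MLRQ) CPM per kb in gut.

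Within each complex the levels of single genes were spread widely. The highest gene of all was ATPsynC, which encodes the c subunit of the membrane rotor, of which each ATP synthase holds a whole ring: 1331 ± 233 CPM per kb in gut (SD, n = 19) and 1596 ± 323 in fat body (n = 16). ATPsynbeta, the catalytic subunit, followed at 1126 ± 323 CPM per kb in gut, within 1 SD of ATPsynC. In fat body ATPsynbeta stood at 1013 ± 285 CPM per kb. ATPsyndelta, a subunit of the central stalk, was the lowest gene of complex V per kb, at 81.4 ± 16.1 CPM per kb in gut and 71.2 ± 18.9 in fat body. This rank depends on its length of 3817 exon bases, the longest of the 63 genes, counted over all annotated exons. Of these bases, 35.6% are shared with another gene. Undivided by length it stood at 311 CPM in gut, above ATPsynB (227), ATPsyngamma (205) and ATPsynG (151).

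In complex IV, COX7B, COX5A and COX7A stood at 990 ± 301, 926 ± 251 and 912 ± 292 CPM per kb in gut, differences well inside their spread over libraries, and COX7C was lowest at 296 ± 95.6. In complex III the small subunit genes UQCR-14 (386 ± 175) and UQCR-Q (360 ± 113) led in gut, and the core protein gene UQCR-C2 was at 24.0 ± 10.1 CPM per kb. UQCR-14 lies wholly within another annotated gene. As the strand used in counting is not given, its reads cannot be told apart from those of its neighbour. The same holds for ND-MNLL, COX5BL and most of COX6AL2, and for part of UQCR-6.4 (40.46% of its exon bases) and ND-MWFE (34.95%). In complex II the membrane anchors SdhC (185 ± 53.4) and SdhD (141 ± 31.3) exceeded the iron-sulfur subunit SdhB (80.9 ± 39.0) and the flavoprotein SdhA (28.8 ± 5.33). In complex I, ND-MLRQ was highest at 844 ± 731 CPM per kb in gut, with an SD close to the mean, and ND-B8 was at 2.03 ± 1.78, near the limit of detection. ND-75, which carries iron-sulfur clusters of the electron path, came next to last at 9.85 ± 4.98 CPM per kb.

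Most members were expressed at a higher level in gut than in fat body. In a joint fit of the uninduced libraries (edgeR quasi-likelihood test, 9610 genes present in both tables, Benjamini-Hochberg adjustment, called at an adjusted p under 0.1), 67 members passed the filter on low counts, of which 57 were called higher in gut and 1 lower. Over all genes tested, 32.5% were called higher in gut and 40.7% lower. The median difference of the members was 0.77 on the log2 scale, against -0.12 for all genes tested. By complex, the median log2 difference was 0.79 for complex I (29 of 34 tested called higher), 1.14 for complex II (4 of 4), 0.58 for complex III (5 of 7), 0.87 for complex IV (9 of 11) and 0.59 for complex V (10 of 11). In these whole-tissue libraries a difference in the share of cells that express a gene cannot be told apart from a difference in RNA per cell.

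**Figure D2:**
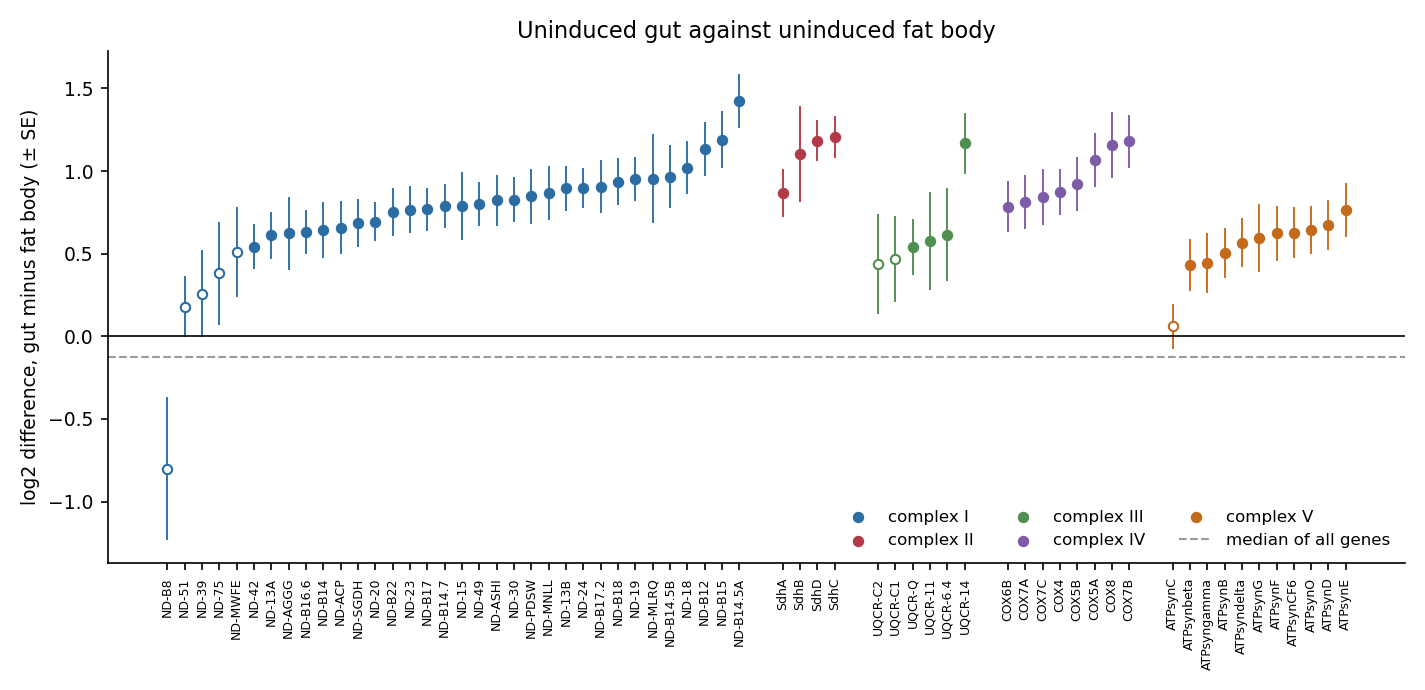
Log2 difference of each main subunit between uninduced gut (19 libraries) and uninduced fat body (16 libraries) with its standard error, grouped and coloured by complex; filled points passed an adjusted p of 0.1 and the dashed line marks the median of all genes tested (-0.12). All points but ND-B8 lie above 0, with complex II between 0.87 and 1.21 and ATPsynC, at 0.06, lowest in complex V.

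Complex II showed the highest median of the 5 complexes. SdhC ranged from 114 to 317 CPM over the gut libraries (median 153) and from 49.7 to 120 CPM over the fat body libraries (median 74.7), scaled over both tissues. The ranges met between 114 and 120 CPM, and the fitted log2 difference was 1.21 (SE 0.13, edgeR adjusted p = 6.97e-09). SdhD lay between 97.9 and 195 CPM in gut (median 130) and between 37.4 and 86.5 CPM in fat body (median 55.3). Here the groups did not overlap at all, with a log2 difference of 1.18 (SE 0.12, edgeR adjusted p = 4.29e-09). SdhA and SdhB differed by 0.87 (SE 0.15) and 1.10 (SE 0.29).

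Among the genes of complex I, ND-B14.5A, an accessory subunit, had the largest difference among the main subunits: 70.2 to 230 CPM in gut (median 109) against 22.1 to 62.5 CPM in fat body (median 45.4), a log2 difference of 1.42 (SE 0.16, edgeR adjusted p = 2.91e-08). ND-B14.5A and SdhD were the only 2 members whose gut libraries all lay above all fat body libraries, against 11.5% of all genes tested. The accessory subunits ND-B15 (1.19), ND-B12 (1.13) and ND-19 (0.95), and ND-24, a subunit of the NADH-oxidising arm (0.90), were also among the members of lowest adjusted p, as was COX7B of complex IV (1.18; 299 to 742 CPM in gut and 93.5 to 343 CPM in fat body).

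The smallest called differences came from complex V and complex III: ATPsynbeta 0.43, ATPsyngamma 0.44, ATPsynB 0.51 and UQCR-Q 0.54 on the log2 scale. These are, in turn, the catalytic subunit, the central stalk, the peripheral stalk and a small subunit of complex III. The 9 members that were not called included ATPsynC, which ranged from 2036 to 3489 CPM in gut and from 1656 to 3672 CPM in fat body (log2 difference 0.06, SE 0.14), the core subunits ND-51 (0.18), ND-75 (0.38), UQCR-C1 (0.47) and UQCR-C2 (0.44), and the accessory subunit ND-39 (0.26). The others were ND-MWFE (0.51), ND-B8 (-0.80, at 0 to 4.94 CPM) and COX6AL2 (-0.03). Of the paralogues, COX7AL2 was the single member called lower in gut (median 0.327 CPM in gut and 2.32 CPM in fat body, log2 difference -3.26, SE 0.62, edgeR adjusted p = 7.09e-05), while UQCR-11L (median 2.41 and 0.625 CPM, log2 difference 2.18) and COX7CL (2.68 and 0.734 CPM, 1.74) were called higher. All 3 rest on a few counts per library, and a gut library at 15.9 CPM weighs on COX7CL.

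The size of the difference depended on the scaling. With totals alone and no scaling factors, 43 members were called higher and 4 lower. The share of all genes called in that fit is not given here, so these counts do not set the members apart. The 4 genes of smallest difference named above were no longer called. The median was 0.37 against -0.52 for all genes, so that the distance from the median gene was 0.89 in both cases. Related genes outside the symbol rule moved less uniformly. Of 11 tested genes listed as chain genes with other names, 8 were called higher in gut, of which Fdx1 and Fdx2 (1.51) are mitochondrial ferredoxins and not chain subunits; without them it was 6 of 9. These included levy (a subunit of complex IV, 1.07), cype (complex IV, 0.89) and Cyt-c-p (the main cytochrome c, 0.73), and 1 gene was called lower, the second cytochrome c gene Cyt-c-d (-1.01). Of 14 genes of the citric acid cycle and pyruvate dehydrogenase, 5 were called higher and 4 lower; of 12 assembly factors, 8 and 1; of 6 nucleotide carriers and porins, 1 and 1; of 32 mitochondrially encoded transcripts, 5 and 0 (median 0.19). Of 8 regulators of nuclear-encoded mitochondrial genes, 0 were called higher and 4 lower, with srl, the fly PGC-1 homologue, at -1.21 and Ets97D, the fly GABPα homologue, at -0.72.

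Markers of other cells differed between the tissues as well. All 6 enterocyte markers and all 5 tested enteroendocrine markers were called higher in gut and all 6 tested fat body markers lower, 9 of 14 muscle markers and 12 of 14 ovary markers were lower in gut, and 4 of 7 Malpighian tubule markers were lower and 3 higher. The 14 muscle markers had a median log2 difference of -0.53. Their part in the members' difference was not tested.

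In response to RU486, the members were called in 1 of the 14 comparisons within a genotype. In the gut of Foxo+AopACT flies, 0 members were called higher and 4 lower of 66 tested, against 0.831% of all 9270 genes called higher and 1.29% called lower. A further measure of the same libraries gave a broader picture: 38 of the 66 members were lower at an unadjusted p under 0.05 (9.57% of all genes), 55 of 66 had a log2 fold change below 0, and the median was -0.78 against -0.10 for all genes. In 36 members both induced libraries lay below all 3 uninduced ones (18.7% of all genes), and in 4, ND-51, ND-75, UQCR-C1 and UQCR-C2, above them (17.9%). Of 9 lists of cell type markers, the summed enterocyte markers also lay below in both induced libraries (7520 to 8191 CPM, against 8741 to 15831 CPM uninduced), the other 8 overlapped, and their part was not tested.

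The 4 genes that fell came from 4 different complexes. SdhC (FBgn0037873, chromosome arm 3R, 11208887 to 11209849 in BDGP6), a membrane anchor of complex II, was at 191, 121 and 311 CPM in uninduced replicates 1, 2 and 3 and at 103 and 92.2 CPM in the induced replicates. Its induced libraries lay below all uninduced ones, with a log2 fold change of -1.13 (SE 0.27, edgeR adjusted p = 0.036). ND-B12 (FBgn0034645), an accessory subunit in the membrane arm of complex I, was at 299, 156 and 332 CPM against 118 and 121 CPM, a log2 fold change of -1.17 (SE 0.30, edgeR adjusted p = 0.048). Here too uninduced replicate 2 was the lowest of its group and stood closest to the induced libraries.

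COX7B (FBgn0040793, chromosome arm 3L, 17425477 to 17426282), a small subunit of complex IV, was at 525, 282 and 706 CPM in the uninduced libraries and 217 in both induced ones (edgeR log2 fold change -1.22, SE 0.33, adjusted p = 0.066). ATPsynCF6 (FBgn0016119, chromosome arm 3R, 23355220 to 23356064), the coupling factor of the peripheral stalk of complex V, was at 564, 335 and 653 CPM against 220 and 256 CPM (edgeR log2 fold change -1.15, SE 0.33, adjusted p = 0.088). All 4 genes shared the same order of uninduced libraries, with replicate 3 highest and replicate 2 lowest, and the induced pair varied far less than the uninduced trio.

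The other subunits of complex II were not called. SdhD, the second anchor, was at 141, 93.3 and 192 CPM uninduced and 101 and 100.2 CPM induced (log2 fold change -0.52, SE 0.28), SdhA at 79.0, 59.1 and 90.0 against 83.0 and 78.9 CPM (0.04, SE 0.24), and SdhB at 76.4, 142 and 69.7 against 118 and 127 CPM (0.40, SE 0.71). In each of these 3 genes the groups overlapped. UQCR-C2 went the other way, from 29.3, 33.8 and 32.8 CPM to 59.0 and 49.9 CPM (log2 fold change 0.68, SE 0.65), and was not called. By complex, the median log2 fold change was -0.78 in complex I, -0.24 in complex II, -0.89 in complex III, -0.89 in complex IV and -0.70 in complex V.

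**Figure D3:**
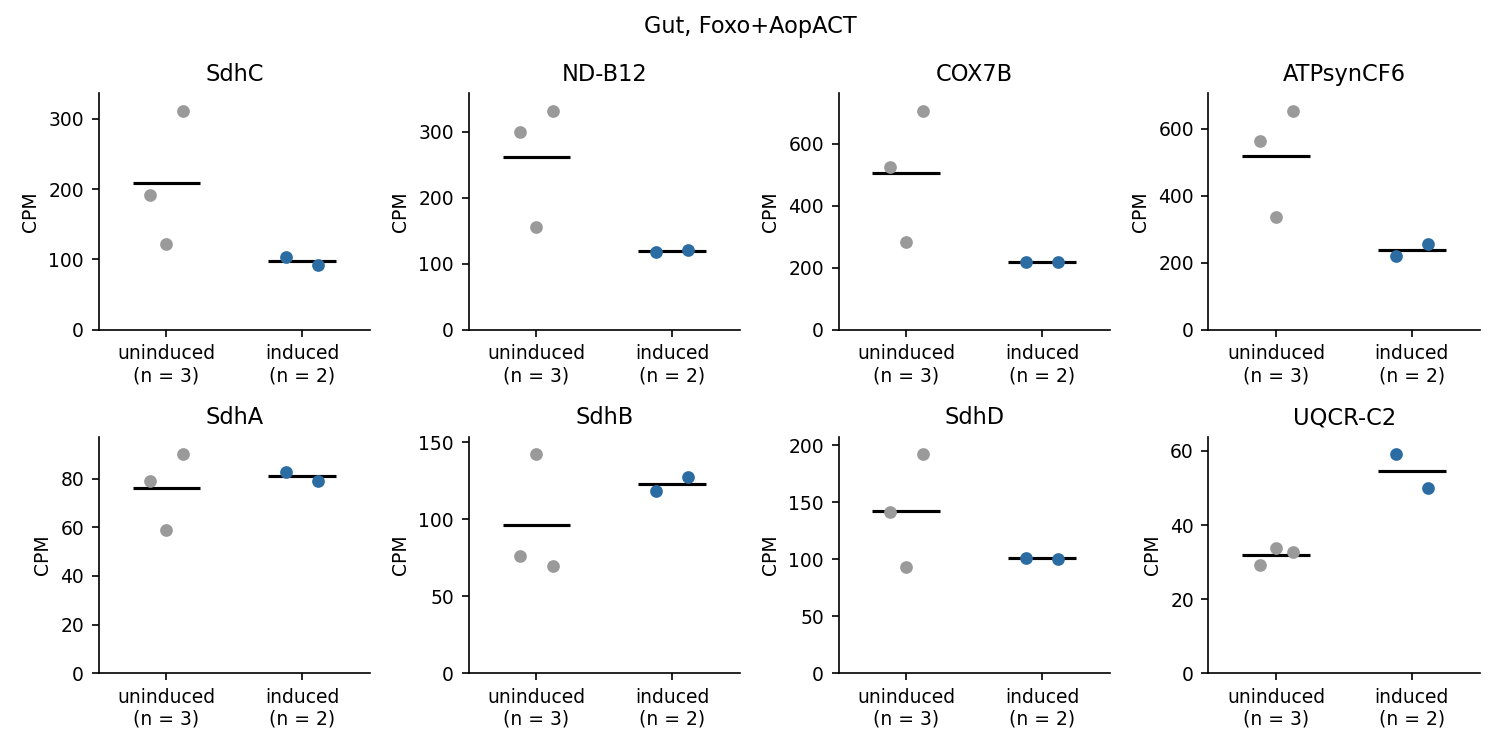
CPM of 8 members in each gut library of Foxo+AopACT flies, 3 uninduced (grey) and 2 induced (blue), with bars at the group means and each axis starting at 0. The upper row holds the 4 genes called lower, in which the induced libraries lie below all uninduced ones; in the lower row SdhA, SdhB and SdhD overlap and UQCR-C2 is higher when induced.

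Summed over the 63 main subunits, the level was 21979, 14437 and 26908 CPM in the uninduced and 13054 and 12282 CPM in the induced gut libraries of Foxo+AopACT flies. As a share of the raw counts, before scaling, the members took 1.85%, 1.5% and 2.22% of the uninduced and 1.5% and 1.52% of the induced libraries, so that uninduced replicate 2 was level with the induced pair. The scaling factors of the same libraries were 0.844, 1.04 and 0.825 uninduced and 1.15 and 1.24 induced, and over all 36 gut libraries they were 0.825 to 1.05 uninduced and 0.876 to 1.24 induced. With totals alone, SdhC was the single member called (log2 fold change -0.68, edgeR adjusted p = 0.075) and the median was -0.34 against 0.31 for all genes; the distance from the median gene, -0.65, was close to the -0.68 with scaling.

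The calls changed with the libraries of this genotype. Leaving out any one of uninduced replicate 1, uninduced replicate 3, induced replicate 1 or induced replicate 2 left 0 members called, with medians between -0.82 and -0.53, and leaving out uninduced replicate 2 gave 24. DESeq2 called 14 members (5.38% of all genes) and limma voom 47 (35.5%). The share of all genes called without uninduced replicate 2 is not given here, so the 24 calls do not set the members apart. Of related genes, Cyt-c-p, the mobile carrier between complexes III and IV, fell as well (mean 1045 CPM uninduced and 375 CPM induced, edgeR log2 fold change -1.48, SE 0.41, adjusted p = 0.076), as the single called gene among the 11 tested chain genes outside the symbol rule. The genes of the citric acid cycle and pyruvate dehydrogenase had a median of 0.29, with 11 of 14 above 0, whereas 11 of 12 assembly factors were below 0 (median -0.65) and 31 mitochondrially encoded transcripts had a median of -0.33. In these lists, and among 6 carriers and 8 regulators, 0 genes were called by edgeR, and 3 assembly factors and 2 carriers were lower at an unadjusted p under 0.05.

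The members with short transcripts lay lower than those with long ones. Among the 42 main subunits with under 1000 exon bases, the median log2 fold change in Foxo+AopACT gut was -0.92 and 40 were below 0, and among the 21 longer ones it was -0.45 with 13 below 0. All tested genes showed the same direction, with a median of -0.55 for 1610 short genes and -0.01 for 7584 longer ones. Library by library, the level of short against long members followed that of all genes: the 2 differences had a correlation of 0.91 over 36 gut libraries and 0.84 over 34 fat body libraries, points that share library, depth and scaling. In gut the same quantity had a correlation of 0.71 with the percentage of mitochondrially encoded counts. The highest gut values were those of Foxo+PntP1 induced replicate 2 (0.74, with 24.9% mitochondrially encoded), Foxo+AopACT+PntP1 uninduced replicate 3 (0.71, 24.9%) and Foxo+AopACT uninduced replicate 3 (0.55, 8.48%). The part of this length pattern in the response of the members was not tested.

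**Figure D4:**
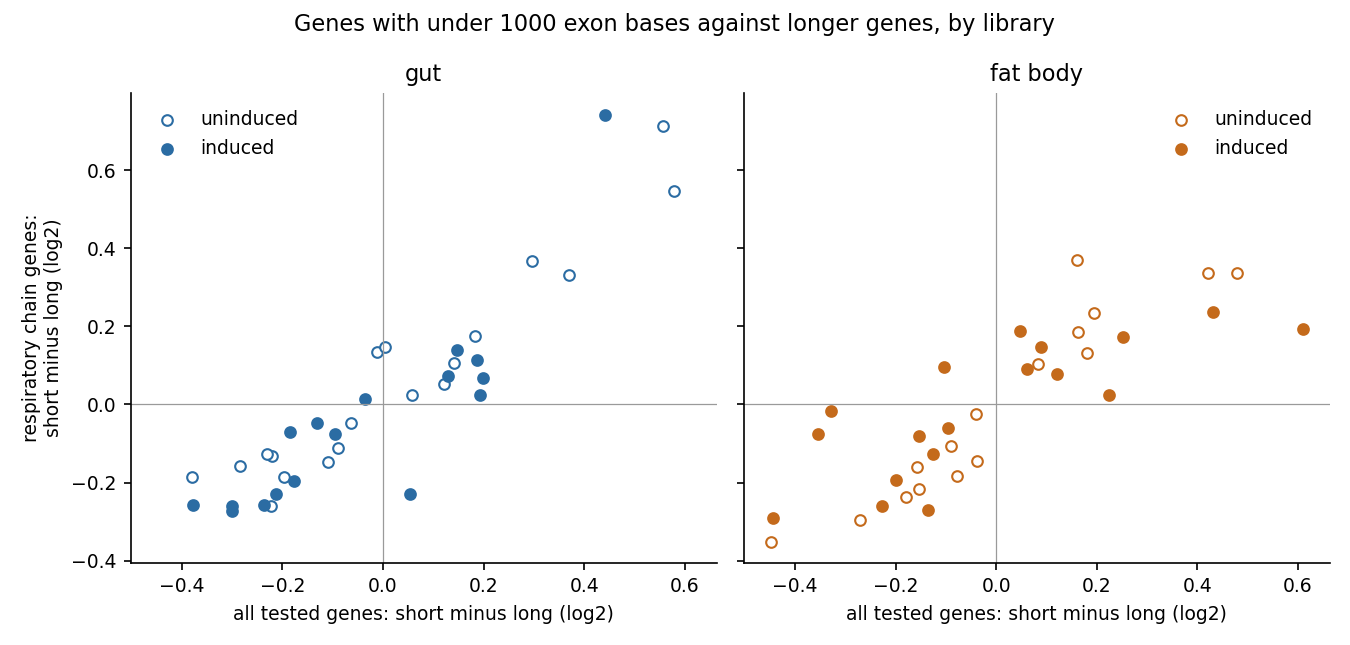
For each library, the log2 level of short (under 1000 exon bases) minus long genes, for all tested genes (x) and for the main subunits (y). For the subunits it is a difference of medians, with each gene centred on its mean over the libraries of the tissue. Open points are uninduced and filled points induced libraries. Points rise from lower left to upper right in gut (36 libraries, correlation 0.91) and fat body (34 libraries, 0.84).

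In the other 6 genotypes 0 members were called in gut by the edgeR quasi-likelihood test. Foxo alone gave a median log2 fold change of 0.05 (0 of 66 members and 4.68% of all genes at an unadjusted p under 0.05; 0.507% of all genes called) and AopACT alone one of -0.07 (0.13 without scaling factors; 0 of 66 and 4.01%; 0.291% called), while DESeq2 and limma voom called 0 members in both. The response of Foxo+AopACT minus the summed responses of Foxo and of AopACT had a median of -0.78, with 59 of 66 members below 0; it was called in 0 members and in 0 of all 9270 genes, and 2 members were lower at an unadjusted p under 0.05 (3.3% of all genes), SdhC (-1.17) and ND-B12 (-1.25), while DESeq2 and limma voom called 0 members. The test of the interaction of genotype and RU486 called 0 members (2.45% of all genes), and 2 were at an unadjusted p under 0.05 (8.09%). These were the same 2 genes, with edgeR adjusted p = 0.32 for ND-B12 and 0.48 for SdhC. DESeq2 called 1 member (5.1% of all genes) and limma voom 25 (17.3%) in the interaction.

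PntP1 alone gave a median of -0.29, which turned to 0.08 without scaling factors, with 57 of 66 members below 0. Of these, 0 reached an unadjusted p under 0.05 (10.9% of all genes did, and 3.04% were called). Limma voom called 1 member, with 14.7% of all genes, and DESeq2 0. With PntP1 alone the summed enterocyte markers lay below (9728 to 19222 CPM uninduced and 6304 to 9093 CPM induced). Neuron markers and stem cell and enteroblast markers lay above, 6 of 9 lists overlapped, and their part was not tested. Foxo+PntP1 gave -0.25 (0.01 without scaling factors) with 49 below 0 and again 0 at an unadjusted p under 0.05 (9.46% of all genes; 2.79% called). In 40 members all 3 induced libraries lay below the single uninduced one (24.9% of all genes) and in 2 above it (25.2%). The enterocyte markers of these libraries summed to 16380 CPM uninduced and 1232 to 5476 CPM induced, and of the 9 marker lists 2 lay below and 2 above the uninduced library; their part was not tested. AopACT+PntP1 went the other way, with a median of 0.37 and 59 of 66 members above 0. DESeq2 and limma voom called 0 members with Foxo+PntP1 and with AopACT+PntP1. In 35 members of the latter both induced libraries lay above all 3 uninduced ones, against 11.8% of all genes, but 0 were called (0.787% of all genes) and 4 were higher at an unadjusted p under 0.05 (3.94%). ATPsynF, a subunit of the membrane part of complex V, was among these, at 219, 299 and 359 CPM uninduced and 516 and 463 CPM induced (edgeR log2 fold change 0.75, SE 0.32, adjusted p = 0.58). COX4, a subunit of complex IV, was at 302, 345 and 424 CPM against 561 and 481 CPM (0.59, SE 0.28). ND-ASHI (0.60) and ND-B15 (0.76) of complex I were the others, and in each of the 4 genes the groups did not overlap.

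In gut libraries labelled Foxo+AopACT+PntP1 the median was -0.23, or 0.07 without scaling factors. In them 0 members were called (1.64% of all genes), and DESeq2 and limma voom called 1 each (3.12% and 3.07% of all genes). At an unadjusted p under 0.05, 7 members were lower (7.12% of all genes). The lowest values were those of ND-MLRQ (-1.60) and UQCR-6.4 (-1.46), and both rested on uninduced replicate 3, a library with 24.9% mitochondrially encoded counts. In it ND-MLRQ stood at 1993 CPM, against 283 and 452 CPM in the other uninduced and 264, 324 and 277 CPM in the induced libraries. The response of Foxo+AopACT+PntP1 minus that of Foxo+AopACT had a median of 0.56, with 0 members called (0.108% of all genes). At an unadjusted p under 0.05, 5 members were higher (2.71% of all genes), among them COX6B (1.09). DESeq2 and limma voom called 0 members. COX6B was at 755, 501 and 1032 CPM uninduced and 391 and 370 CPM induced with Foxo+AopACT. With Foxo+AopACT+PntP1 it was at 518, 748 and 493 against 525, 746 and 581 CPM. Its groups did not overlap in the first genotype and did in the second.

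**Figure D5:**
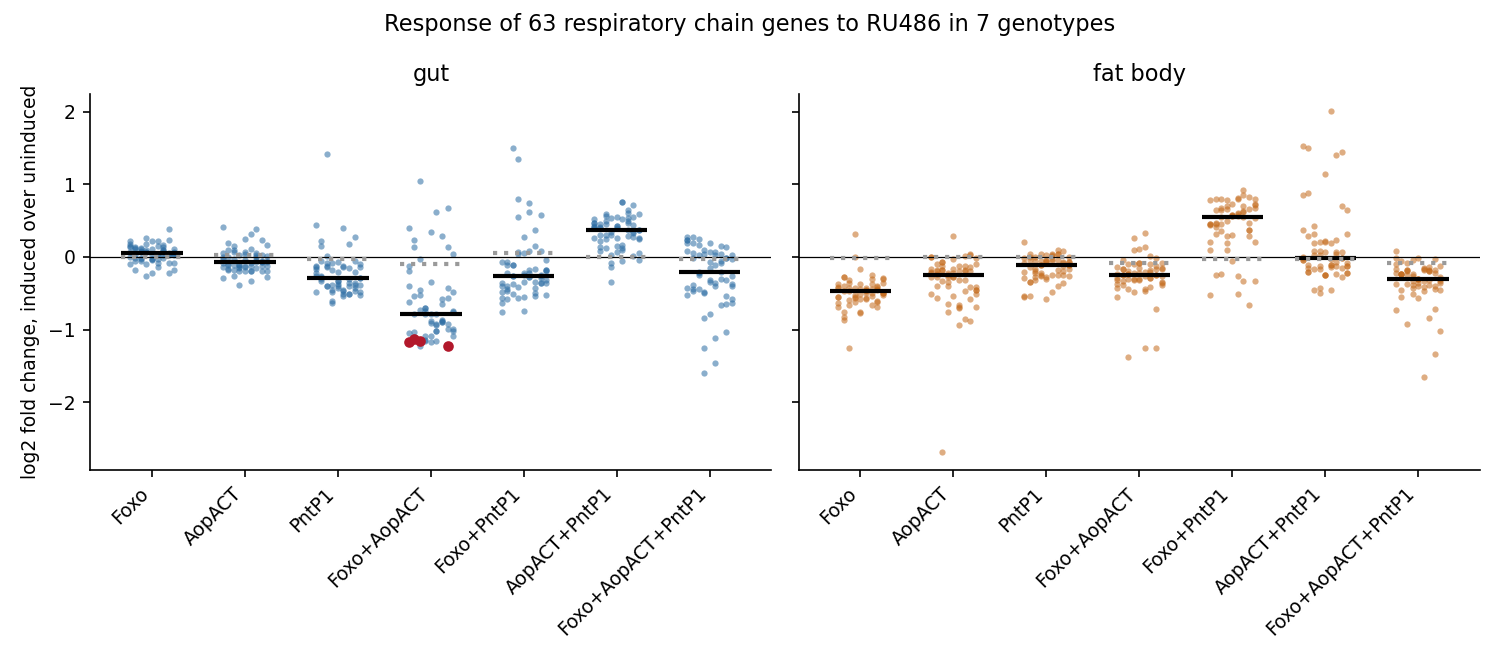
Log2 fold change of the 63 main subunits, induced over uninduced, in 7 genotypes in gut (blue) and fat body (orange); solid bars mark their median, dotted bars the median of all genes tested, and red points the members called at an adjusted p under 0.1. The called points are confined to gut Foxo+AopACT (median -0.78), while AopACT+PntP1 in gut and Foxo+PntP1 in fat body have medians above those of all genes.

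In fat body 0 of 65 tested members were called in any of the 7 genotypes by edgeR. The lowest median was that of the libraries labelled Foxo, at -0.47 against -0.02 for all genes, with 63 of 65 members below 0. In 25 members all 3 induced libraries lay below all 3 uninduced ones, against 13% of all genes tested. In the same libraries the summed fat body markers (97982 to 201670 CPM uninduced and 38325 to 92654 CPM induced), tubule markers (641 to 859 and 206 to 587 CPM) and enterocyte markers (154 to 363 and 76.8 to 117 CPM) also lay below in every induced library, and testis markers above (3.87 to 37.3 and 41.8 to 74.5 CPM), while 5 of 9 lists overlapped; their part was not tested. With 0% of genes called, this comparison had 4 members lower at an unadjusted p under 0.05 (9.94% of all genes), and DESeq2 called 1 (7.41% of all genes) and limma voom 2 (13.1%). SdhC was at 92.4, 120 and 115 CPM in the uninduced and 61.0, 36.2 and 91.9 CPM in the induced libraries (edgeR log2 fold change -0.83, SE 0.29, adjusted p = 0.20). COX4 was at 379, 381 and 435 CPM against 263, 185 and 304 CPM (-0.67, SE 0.31, edgeR adjusted p = 0.22). The groups were separate in both genes, and induced replicate 2 was the lowest library in each. Summed over the main subunits, the level was 14840, 19399 and 15787 CPM uninduced and 12706, 8777 and 13922 CPM induced, while the share of raw counts, at 1.46%, 1.72% and 1.2% against 1.31%, 1.22% and 1.70%, overlapped. Without scaling factors the median was -0.04 against 0.46 for all genes, and without induced replicate 2 it was -0.16.

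The libraries labelled Foxo+PntP1 gave the highest median in fat body, 0.55 against -0.02 for all genes. Of the members, 55 of 65 were above 0 and 13 were higher at an unadjusted p under 0.05 (3.07% of all genes), with 0% of all genes called and DESeq2 and limma voom calling 0 members. In 39 members both induced libraries were above all 3 uninduced ones, against 14.6% of all genes. The summed tubule markers lay above as well (428 to 529 CPM uninduced and 575 to 632 CPM induced), the other 8 marker lists overlapped, and their part was not tested. ND-19, an accessory subunit of complex I, was at 42.6, 42.2 and 44.9 CPM uninduced and 95.2 and 70.4 CPM induced (edgeR log2 fold change 0.80, SE 0.30, adjusted p = 0.83). COX7A was at 350, 238 and 379 CPM against 824 and 513 CPM (0.92, SE 0.38), and ATPsynbeta at 1451, 1834 and 1979 against 3738 and 2426 CPM (0.72, SE 0.33). All 3 genes were highest in induced replicate 2, which held 2.01% of its raw counts in members. Leaving out the uninduced library that goes against its label raised the median to 0.71 and left 0 members called; without induced replicate 2 the median was 0.21, and without induced replicate 3 it was 0.83. Among the longer subunits, UQCR-C2 was at -0.66 and SdhB at -0.53, and neither was called.

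The other fat body genotypes had medians of -0.25 (AopACT, 0.17 without scaling factors; 0 of 65 members and 4.88% of all genes at an unadjusted p under 0.05, 0.411% called), -0.11 (PntP1, 0.06 without scaling factors; 0 and 2.17%, 0.0103%), -0.24 (Foxo+AopACT; 1 and 2.32%, 0.0308%), -0.02 (AopACT+PntP1; 1 and 23.2%, 0.123%) and -0.30 (Foxo+AopACT+PntP1; 1 and 2.47%, 0.0103%). DESeq2 and limma voom called 0 members in each of these 5. In AopACT+PntP1 the values differed by length, as they did over all tested genes (median -0.34 for 1691 short and 0.05 for 7962 longer genes): the long subunits ND-75 (2.02, SE 1.15), SdhB (1.53, SE 0.88), ND-39 (1.51, SE 0.86) and UQCR-C2 (1.45, SE 1.13) had the highest values while the median of the 42 short members was -0.09 and that of the 21 long ones 0.31. ND-75 was at 7.08 and 5.19 CPM uninduced and at 14.9, 51.0 and 18.3 CPM induced. In the same libraries the summed fat body markers lay above when induced (34668 to 44496 CPM uninduced and 81756 to 206555 CPM induced). Muscle and neuron markers lay above as well and testis markers below, and 5 of 9 lists overlapped. Of the 9 lists, 2 lay above and 2 below with AopACT, 1 and 2 with PntP1, and 0 and 2 with Foxo+AopACT+PntP1. The part of these markers was not tested. The departure from the sum of the Foxo and AopACT responses had a median of 0.50, or -0.41 without scaling factors. It was called in 0 members (0.0719% of all genes), with 1 member and 17.2% of all genes at an unadjusted p under 0.05. The response of Foxo+AopACT+PntP1 minus that of Foxo+AopACT had a median of -0.04, or 0.26 without scaling factors. It was called in 0 members (0% of all genes), with 1 member and 2.92% of all genes at an unadjusted p under 0.05. The interaction was called in 0 members (0.113% of all genes), with 0 members and 13.1% of all genes at an unadjusted p under 0.05. DESeq2 and limma voom called 0 members in each of these tests. ND-19, SdhC, COX6AL2, ND-49, ATPsynbeta and ND-B17.2 had the lowest interaction p in fat body, with edgeR adjusted p from 0.40 to 0.50.

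Across libraries most members varied together. A set of genes with mostly long transcripts varied in a way of its own, while other long genes followed the rest. The log2 level of each main subunit was compared with the mean of the other main subunits within a tissue. The median correlation was 0.75 over 36 gut libraries and 0.80 over 34 fat body libraries, points that share scaling and depth, and 24 genes in gut and 30 in fat body exceeded 0.8. The most alike in gut were the accessory subunits of complex I ND-B15 and ND-B14.5A (0.93 each), and in fat body ATPsynO, a subunit of the peripheral stalk (0.96), and COX4 (0.94). By contrast, 11 genes in gut and 13 in fat body were below 0.4.

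In gut those of lowest correlation with the rest were ND-51 (-0.13), SdhB (-0.08), ND-B8 (-0.08), ND-75 (-0.05), UQCR-C2 (0.07), ND-39 (0.08), ATPsyngamma (0.08), UQCR-C1 (0.10) and ND-42 (0.14). All of these but ND-B8, a gene of 460 exon bases at very low counts, have 1219 exon bases or more. They resembled each other instead: ND-39 and UQCR-C1 had a correlation of 0.94, SdhB and ATPsyngamma 0.93, and ND-75 and UQCR-C2 0.89 in gut, and in fat body SdhB and UQCR-C1 reached 0.98 and ND-39 and UQCR-C1 0.97. ND-51 binds NADH, ND-75 and SdhB carry iron-sulfur clusters, and UQCR-C1 and UQCR-C2 are the core proteins of complex III, so the set draws on complexes I, II, III and V. A second small set joined UQCR-11 and ND-MWFE (0.94 in gut, 0.83 in fat body) with ND-MLRQ (0.91 with ND-MWFE in fat body) and UQCR-6.4 (0.89 with ND-MLRQ in fat body). Of their exon bases, UQCR-6.4 shares 40.46% and ND-MWFE 34.95% with other genes, ND-MLRQ 2.23% and UQCR-11 0%. Some genes below 0.4 were short: ND-30 (0.37, 976 exon bases) and ND-B17 (0.36, 992) in gut. In fat body they included ND-AGGG, ND-MLRQ, ND-MWFE, UQCR-6.4 and ND-B8, all under 1000 exon bases. Other long genes followed the rest in gut, such as ND-20 (0.89, 1336 exon bases) and ATPsynC (0.78, 1868).

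Summed by complex, complexes I, III, IV and V had pairwise correlations of 0.69 to 0.95 in gut, and complex II was lower against each of the others, 0.43 to 0.57. In fat body complex II had correlations of 0.54 to 0.82 with the others, which among themselves had 0.78 to 0.98. The summed level of all main subunits had a correlation of -0.74 with the scaling factor of the library in gut and -0.64 in fat body. In fat body it also had correlations of 0.58 with the summed muscle markers and 0.62 with the summed Malpighian tubule markers, against -0.07 and 0.11 in gut, and one of -0.57 with the testis markers (-0.10 in gut). In gut the marker sums with the strongest correlations were the enteroendocrine (0.41) and fat body markers (-0.40). The muscle markers summed to 2145 to 6784 CPM over the fat body libraries and 1955 to 3442 CPM over the gut libraries, and the tubule markers to 206 to 967 CPM and 177 to 471 CPM. As a share of raw counts, before scaling, the members had correlations of -0.10 and 0.26 with the muscle and tubule marker sums in fat body and 0.05 with the testis markers there, and in gut 0.46 with the enteroendocrine and -0.28 with the fat body markers. Their part in the results above was not tested.

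Among the 8 listed regulators of nuclear-encoded mitochondrial genes, ERR, the orphan nuclear receptor of the estrogen-related type, was the single gene called within a genotype. It fell in gut with PntP1 (mean 52.3 CPM uninduced and 24.5 CPM induced, edgeR log2 fold change -1.16, SE 0.26, adjusted p = 0.013) and with Foxo+PntP1 (55.0 CPM in the single uninduced library, whose spread is taken from the other groups, and a mean of 24.0 CPM, -1.12, SE 0.31, edgeR adjusted p = 0.058), and its interaction of genotype and RU486 was called (edgeR adjusted p = 0.049). In the same 2 comparisons the summed enterocyte markers also lay below the uninduced libraries, and their part was not tested. The members had medians of -0.29 and -0.25 there and 0 calls. Its log2 fold change stayed between -1.28 and -0.81 with PntP1 and between -1.21 and -0.87 with Foxo+PntP1 over the alternatives run, and the call was lost in 3 of 15 and 4 of 13 of them. The call was lost in both without scaling factors (edgeR adjusted p = 0.101 and 0.23), with PntP1 without induced replicate 1 (0.21) or 2 (0.16), and with Foxo+PntP1 without induced replicate 2 (0.16) or 3 (0.103) or with the genotype fitted alone (0.999). Of the cell type markers, the enterocyte lipase gene mag was called lower in gut with PntP1 (-2.58) and Foxo+PntP1 (-3.45) and in the interaction, the neuron gene brp lower in gut with AopACT+PntP1 (mean 3.93 and 0 CPM), and Lsp2 higher in fat body with AopACT+PntP1 (mean 0.630 and 24.9 CPM). In gut with Foxo+AopACT 0 markers were called by edgeR, and 3 ovary, 2 enteroendocrine, 1 tubule, 1 neuron and 1 stem cell marker were at an unadjusted p under 0.05.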

How the data were processed

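Poly(A) RNA-seq libraries from pooled guts and fat bodies were used as the counts the authors deposited, 1 table a tissue, with whole-number counts per gene. According to the methods of the study, reads were collapsed by molecular identifier, aligned with HISAT2 and counted with featureCounts, and genes with no counts were left out; the submitters' processing notes also name SAMtools and DESeq2. The sources used here do not give the strand setting of the counting.

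Gene identifiers were matched to symbols, positions and exon lengths in the Ensembl BDGP6 annotation (10287 of 10366 gut and 10982 of 11069 fat body identifiers). Each tissue was fitted in R 4.3.3 with edgeR 4.0.16 (TMM scaling, filterByExpr with a minimum count of 10, quasi-likelihood F test) over 14 groups with the experimental block of the deposited table as covariate, and p-values were adjusted over all genes tested. Genes were called at an adjusted p under 0.1, the rate used by the study. Gut and fat body were compared over uninduced libraries in 1 joint fit. CPM values are scaled by TMM within a tissue, or over both tissues in the tissue comparison. The fits were also run on simulated counts, drawn with a single spread for all genes and no block effect. The outcome is not given here and does not bear on the calls in these libraries. Replicate pairs differed by more than sampling noise (chi-square per degree of freedom of 10.1 or more), and each library was counted once.

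Genes named in the text are the 8 members of lowest adjusted p per direction in a comparison with calls, the highest member per length in each complex, all of complex II, the 6 members of lowest interaction p per tissue, the 5 highest and 5 lowest called tissue differences, and up to 4 called genes of each related list (other chain genes, mitochondrially encoded transcripts, assembly factors, citric acid cycle, carriers, regulators, cell type markers). Members named beyond this rule, such as those at an unadjusted p under 0.05, the subunits above the uninduced libraries and the length and likeness groups, were chosen after their values were seen. The members and lists were chosen with earlier results of these data known.

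Alternatives were RLE scaling, DESeq2 1.42.0, limma 3.58.1 voom with quality weights, no filter, no block, each genotype alone, and leaving out mitochondrially encoded genes, doubted libraries, libraries numbered 02 and 05, or each replicate in turn. Libraries numbered 02 and 05 have different labels in gut and fat body. Number 02 is Foxo uninduced in fat body (replicate 1) and Foxo+PntP1 induced in gut, and number 05 is the reverse. In gut, the induced Foxo+PntP1 libraries, with number 02 among them, held pnt at 208 to 1050 CPM. The gut libraries without induced PntP1, with number 05 among them, held at most 79.0 CPM. Beyond these values, whether the labels are right was not tested. Totals without scaling factors and a block by library number were added after seeing the data.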

Additional observations from a re-analysis of the deposited data

Results flagged for a closer look

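In 5 pairs of comparisons the summed level of the 63 main subunits moved in opposite directions, with every induced library below the uninduced ones in one comparison and above them in the other; the difference between the comparisons was not tested on these sums. In gut, the log2 ratio of the mean sums was -0.74 with Foxo+AopACT (21108 ± 6281 CPM uninduced, SD, n = 3, and 12668 ± 546 CPM induced, n = 2) and 0.25 with AopACT+PntP1 (14234 ± 1215, n = 3, and 16892 ± 279 CPM, n = 2), a difference of -0.98. With Foxo+PntP1 in gut it was -0.22 (17327 CPM in the single uninduced library and 14894 ± 523 CPM induced, n = 3), which differs by -0.47 from AopACT+PntP1 in gut and by -0.88 from Foxo+PntP1 in fat body. In fat body, it was -0.50 in the libraries labelled Foxo (16675 ± 2406 and 11802 ± 2689 CPM, n = 3 each) and 0.66 in those labelled Foxo+PntP1 (12153 ± 1956, n = 3, and 19240 ± 4476 CPM, n = 2), a difference of -1.16. The fat body libraries labelled Foxo+AopACT stood at -0.16 (14461 ± 418, n = 2, and 12944 ± 1703 CPM, n = 3), which differs from Foxo+PntP1 by -0.82. An uninduced fat body library labelled Foxo+PntP1 goes against its label (pnt at the level of induced carriers). Gene by gene, the interaction of genotype and RU486 called 0 members in either tissue by edgeR, with 2 at an unadjusted p under 0.05 in gut and 0 in fat body. Over the libraries of a tissue the sums had correlations of -0.74 (gut) and -0.64 (fat body) with the scaling factor. As a share of raw counts, before scaling, induced and uninduced libraries were not separate in gut Foxo+AopACT and in fat body Foxo. Without scaling factors the median of the members was 0.01 in gut Foxo+PntP1 and -0.04 in fat body Foxo. The part of the scaling in these differences was not tested.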

How the results depend on the processing

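Under every setting tried, between 47 and 60 of the tested members were called between gut and fat body, in either direction. When each library was left out in turn it was 57 to 64. The shares of all genes called beside these counts are not given here, so the counts do not set the members apart. Over these fits the median log2 difference of the members was 0.37 to 0.93, and it lay 0.81 to 0.97 above that of all genes. The 4 calls in Foxo+AopACT gut changed with the setting: 1 member was called with totals alone, 14 by DESeq2, 47 by limma voom and 45 with the genotype fitted alone, and 0 to 24 when each of its 5 libraries was left out. DESeq2 and limma voom called 5.38% and 35.5% of all genes in this comparison. The shares of all genes beside the 45 and the 24 calls are not given here, so these counts do not set the members apart. The cause was not tested. The direction of the 4 called genes was the same in all 15 alternatives run for each, with log2 fold changes of -1.28 to -0.68 for SdhC, -1.33 to -0.72 for ND-B12, -1.41 to -0.77 for COX7B and -1.28 to -0.71 for ATPsynCF6, and they lost their call in 4, 5, 5 and 6 of these. Where edgeR called 0 members, DESeq2 called 1 in gut Foxo+AopACT+PntP1, 1 in the gut interaction and 1 in fat body Foxo. Limma voom called 1, 25 and 2 there and 1 in gut PntP1. Leaving out single libraries gave 0 to 2 calls in gut Foxo+AopACT+PntP1 (2 without uninduced replicate 1). It gave 0 to 2 in fat body Foxo (2 without induced replicate 1). The calls for the departure from the summed responses in fat body changed without Foxo+AopACT uninduced replicate 1, which leaves 1 library in that group.

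The experimental block is part of every fit reported. With no replicate block, 4 members were called in Foxo+AopACT gut and 59 between the tissues, and no count of calls moved by over 1.5 times. In the tissue comparison, a replicate block by library number was used for the 13 pairs of libraries that share a number, genotype and block. It gave 59 calls. That a shared number means shared flies is not stated by the labels. The shares of all genes called in these fits are not given here, so the counts do not set the members apart.

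Without scaling factors the median of the members changed sign in 8 of 19 comparisons, while its distance from the median of all genes moved by at most 0.047 on the log2 scale. Leaving out the only uninduced gut library of Foxo+PntP1 gives no value for that genotype. The planned search of promoters for motifs was not run, and no sequence was used here. The depth limits what can be said of members at a few counts per library, such as ND-B8 and the paralogues, and 1 to 3 libraries a group limit all comparisons within a genotype.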
